A study of Homo sapiens with 6 samples.

Results

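The lysosomal hydrolases and membrane proteins described here are 41 genes, chosen by their symbols from a list of known lysosomal genes, out of 59050 entries in the deposited table. They were sorted by role into 12 cathepsins and other peptidases, 12 glycosidases, 5 sulfatases, 6 lipid enzymes and activators, and 6 membrane proteins. All 41 were found in the table, and all 41 passed the filter on low values (1 TPM or more on average over the 6 libraries; TPM is a gene's share of all transcripts of a library, corrected for length). Bulk RNA-seq was made from HFF, a fibroblast line (human foreskin fibroblasts), infected at about passage 18 with a virus carrying ER:RAS, a fusion of the H-RAS G12V oncoprotein with a hormone-binding domain that 4-hydroxytamoxifen (4OHT) switches on. The 4OHT group (3 libraries) received 100 nM 4OHT and was harvested 1 week later as cells in oncogene-induced senescence, and the DMSO group (3 libraries) received the vehicle. The sample labels give no harvest time for the DMSO group. Both groups carry the transgene and were selected with 200 µg/ml neomycin, and cells given 4OHT without the transgene are not analysed here.

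Lysosomes are acidic organelles that break down material delivered by endocytosis and autophagy. Their hydrolases are made in the endoplasmic reticulum, mostly tagged with mannose 6-phosphate, and work at the low pH kept by a proton pump in the lysosomal membrane. Senescent cells are known for an enlarged lysosomal compartment, and the β-galactosidase activity used to stain them comes from the lysosomal enzyme encoded by GLB1. The transcription factors TFEB, TFE3 and MITF bind the sequence TCACGTGA or its core CACGTG, an E-box, in the promoters of many lysosomal genes.

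Promoter stretches are shown for the 5 members whose window holds TCACGTGA, because in them that known element can be set beside the expression values. The sequences are RefSeq promoter windows on GRCh38.p14, which run from 250 bases before to 50 bases after a gene's start. They are written 5′ to 3′ on the strand of the gene and end upstream of the RefSeq start. Those of CTSA and GALNS are kept to 30 bases because GENCODE 29 places an exon there (of CTSA itself and of TRAPPC2L). GENCODE 29 starts GAA at 80101556, so the last bases of its stretch lie within the gene as annotated there. TCACGTGA, or CACGTG where the longer form is absent, is in capitals.
LAMP1, chr13:113297039-113297238, plus strand: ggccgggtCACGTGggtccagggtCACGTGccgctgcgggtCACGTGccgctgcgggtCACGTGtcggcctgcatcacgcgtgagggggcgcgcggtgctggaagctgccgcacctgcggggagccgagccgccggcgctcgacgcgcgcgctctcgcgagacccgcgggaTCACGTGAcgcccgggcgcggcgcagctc
GAA, chr17:80101491-80101560, plus strand: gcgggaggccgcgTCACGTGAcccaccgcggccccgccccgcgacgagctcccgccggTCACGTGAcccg
CTSA, chr20:45891289-45891318, plus strand: ctgtCACGTGgcgccggagtTCACGTGAct
GALNS, chr16:88857108-88857137, minus strand: gcgccaggcaccgcgTCACGTGAcccgccg
MCOLN1, chr19:7522554-7522623, plus strand: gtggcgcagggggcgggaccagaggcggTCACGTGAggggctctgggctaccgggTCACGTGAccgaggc
Both motifs read the same on either strand, and every TCACGTGA contains a CACGTG. A window was found for 29 of the 41 members. TCACGTGA stood in 5 of these 29 (17.2%), against 2.28% of the 10198 tested genes with a window. CACGTG stood in 10 of the 29 (34.5%), against 12.6% of the tested genes. LAMP1 held 6 copies of CACGTG, 5 of them in the printed stretch and 1 that spans its start and is not printed.

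Levels below are TPM per library, and a change is the difference of the group means on the log2(TPM + 1) scale, 4OHT minus DMSO, tested by limma across all 15272 genes that passed the filter. A gene is said to have risen or fallen where its Benjamini-Hochberg adjusted p over those genes was below 0.05. Of the 41 members 14 rose, 13 fell and 14 were not called, so that 27 (65.9%) passed the test. Over all genes tested 49.6% passed, 19.8% higher and 29.9% lower. The members are expressed well above the filter, the lowest at a mean of 13.0 TPM. Among the 8206 genes at or above that mean 57.9% passed, 27.8% higher and 30.1% lower. In 31 members (75.6%) the 3 libraries of a group lay entirely on one side of the other 3, which held for 59.0% of all genes tested. The median change of the members was -0.05, beside -0.09 over all genes tested, and the median of its size without regard to sign was 0.35, beside 0.33. Changes of at least 1 log2 unit were seen in 4 members that passed the test (9.76%), which were CTSS, IDS, CTSC and GUSB, beside 12.4% of all genes tested. For the separation of the libraries, the medians and these larger changes, the members stand beside all genes tested only. Those include genes expressed below the lowest member, so the comparisons are not matched for level.

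**Figure D1:**
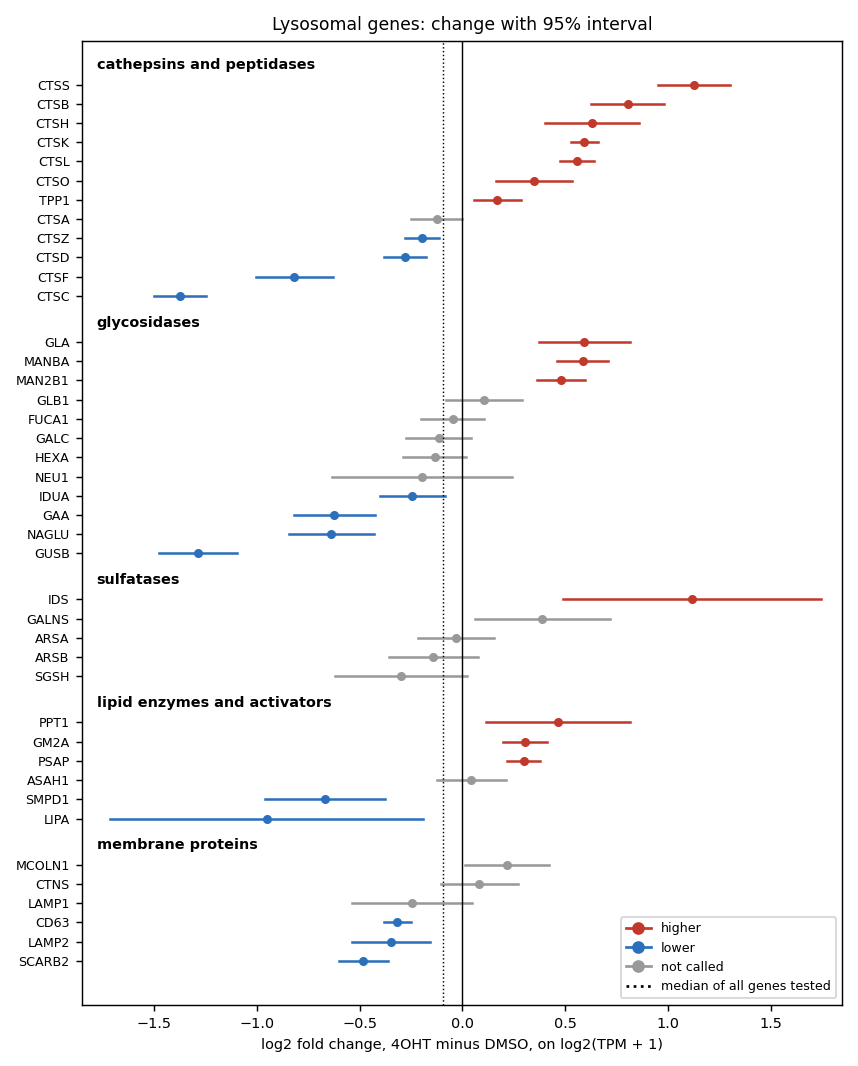
Log2 fold change (4OHT minus DMSO, on log2(TPM + 1)) of the 41 lysosomal genes by role, with 95% intervals from limma (n = 3 libraries a group); red genes rose, blue genes fell and grey genes were not called. The changes run from -1.37 for CTSC to 1.13 for CTSS, and each role group except the sulfatases and the membrane proteins holds genes that rose and genes that fell.

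The library values touch these results in a few ways. The libraries sum to between 998367 and 998843 TPM, and read depth is unknown. The HRAS row, which does not part the transgene from the cells' own gene, stood at 1281 ± 51.1 TPM in 4OHT and 936 ± 24.7 TPM in DMSO (SD, n = 3 each). The proliferation marker MKI67 stood at 5.17 ± 0.380 and 34.1 ± 1.29 TPM in the same order of groups. All 10 fibroblast markers were expressed, and their changes went both ways. COL1A1, COL1A2, COL3A1, DCN, LUM and FAP fell (from -0.19 for COL1A1 to -1.04 for DCN). VIM, THY1 and PDGFRB rose (from 0.15 for VIM to 0.715 for PDGFRB), and S100A4 was not called. Among 26 markers of other cell types 4 reached a mean of 1 TPM. CD14 rose, at 5.24 ± 1.70 TPM in 4OHT and 2.14 ± 0.822 TPM in DMSO (0.99, adjusted p = 0.0187). PMEL, EPCAM and TEK fell (-0.82, -0.67 and -1.12, adjusted p = 0.0172, 0.0137 and 0.00129), with group means from 0.366 TPM (TEK) to 0.5997 TPM (EPCAM) in 4OHT and from 1.55 TPM (EPCAM) to 1.97 TPM (TEK) in DMSO. The summed immune markers ranged from 5.83 to 11.1 TPM in 4OHT libraries and from 3.02 to 4.98 TPM in DMSO libraries. AIF1 was at 0 in all 6, and TYROBP, CD163 and ITGAM were at means of 0.0825 TPM or less. PTPRC averaged 1.12 TPM in 4OHT and 0.851 TPM in DMSO, and CSF1R 1.18 TPM in 4OHT and 0.594 TPM in DMSO. Both were below a mean of 1 TPM over the 6 libraries and were not tested. Scaling the libraries by the median of ratios moved the log2 fold changes upward by a median of 0.113. Under that scaling 17 members rose and 10 fell, beside 26.5% of genes higher and 23.5% lower, so the balance of directions among members depends on the scaling. TPM are shares of a library: fewer cells making a transcript and less of it per cell cannot be told apart. Nothing in the labels says that the 3 libraries of a group came from separate cultures, so the p-values speak of the spread among these libraries, which may be technical.

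Cathepsins and peptidases, which cut proteins, included 7 genes of 12 that rose, 4 that fell and CTSA, which was not called (median change 0.26). Transcripts of the 3 most abundant cysteine cathepsins, CTSB, CTSK and CTSL, all rose. The summed level of the group was 5884, 5823 and 5851 TPM in 4OHT libraries, against 4303, 4538 and 4425 TPM in DMSO libraries. CTSB, an endopeptidase that also trims dipeptides from protein ends, stood at 1999, 1917 and 2037 TPM in 4OHT and at 1039, 1281 and 1101 TPM in DMSO. Every 4OHT library was above every DMSO library (log2 fold change 0.80, SE 0.0750, adjusted p = 0.000126). Of all cathepsin and peptidase transcripts CTSB made up 33.9 ± 0.952% in 4OHT and 25.8 ± 2.17% in DMSO (SD, n = 3 each). CTSK, the collagen-cutting cathepsin best known from osteoclasts, averaged 1673 ± 13.8 TPM in 4OHT and 1107 ± 10.9 TPM in DMSO (0.59, adjusted p = 4.12e-06). CTSL averaged 914 ± 31.0 TPM in 4OHT and 619 ± 6.21 TPM in DMSO (0.56, adjusted p = 1.77e-05). The 6 listed CTSL pseudogenes summed to 0.0587 TPM in 4OHT and 0.438 TPM in DMSO, far below CTSL itself.

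CTSS, a cathepsin that stays active at neutral pH and is known from antigen-presenting cells, rose by about as much as IDS, and which of them changed more turned when single libraries were left out. It stood at 17.81, 18.02 and 18.99 TPM in 4OHT libraries and at 7.70, 7.73 and 8.05 TPM in DMSO libraries. The groups lie far apart beside their spread (log2 fold change 1.13, SE 0.0746, adjusted p = 2.23e-05). CTSS and CTSK neighbour each other on chromosome 1, at 150730196 to 150765957 and 150796208 to 150808323 (GENCODE 29, GRCh38). CTSH, an aminopeptidase, rose by 0.63 to 16.1 ± 0.993 TPM, against 10.1 ± 0.980 TPM in DMSO. CTSO rose by 0.35 to 24.5 ± 0.485 TPM, against 19.1 ± 1.67 TPM in DMSO. TPP1, which removes tripeptides from protein ends, rose only slightly, at 197 ± 1.12 TPM in 4OHT and 175 ± 9.89 TPM in DMSO (0.17, adjusted p = 0.0235). Each omission of a single library ended that call (adjusted p = 0.0537 to 0.0634), except that of DMSO replicate 1 (adjusted p = 0.0101).

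CTSC and CTSF fell within the same family. CTSC, a dipeptidyl peptidase that activates serine proteases of immune cell granules, stood at 106, 105 and 95.8 TPM in 4OHT and at 258, 267 and 275 TPM in DMSO. With all libraries kept it is the member with the largest decrease (-1.37, SE 0.0526, adjusted p = 1.81e-06), 2.61-fold lower in 4OHT. CTSF stood at 22.5, 22.8 and 19.9 TPM in 4OHT and at 41.9, 37.5 and 37.8 TPM in DMSO (-0.82, SE 0.0792, adjusted p = 0.000151). CTSD, the main aspartic protease of the lysosome, fell by 0.28 on the log2 scale, at 279 ± 13.2 TPM in 4OHT and 338 ± 4.89 TPM in DMSO. The carboxypeptidase CTSZ averaged 348 ± 5.76 TPM in 4OHT and 398 ± 10 TPM in DMSO (-0.20, adjusted p = 0.00326), and it did not pass under median-of-ratios scaling (-0.08, adjusted p = 0.113). CTSA, a carboxypeptidase that also shields NEU1 and GLB1 from degradation, averaged 276 ± 12.6 TPM in 4OHT and 301 ± 14.9 TPM in DMSO (-0.12, SE 0.0527, adjusted p = 0.0896). It passed without DMSO replicate 2 (-0.17, adjusted p = 0.0443) and under quantile normalization (-0.20, adjusted p = 0.0143). Exons of CTSA overlap those of PLTP on the other strand, at 19.1 TPM in 4OHT and 36.5 TPM in DMSO, whose part in the CTSA values was not tested.

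**Figure D2:**
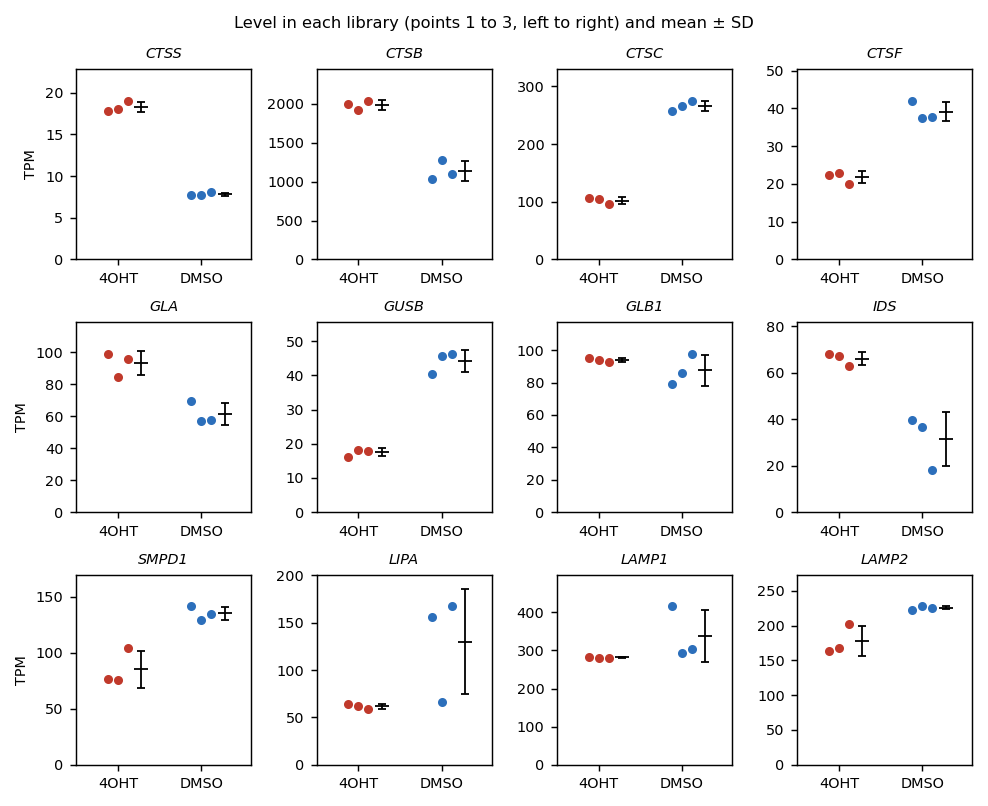
TPM of 12 lysosomal genes in each library (points, replicates 1 to 3 from left to right, 4OHT red and DMSO blue), with the group mean ± SD (n = 3) beside them; every axis starts at 0. The groups are apart for all but GLB1, and single libraries stand off from their own group for LIPA (66.5 TPM in DMSO replicate 2), IDS (18.1 TPM in DMSO replicate 3) and LAMP1 (416 TPM in DMSO replicate 1).

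Glycosidases, which remove sugars one at a time from glycans, glycolipids and glycosaminoglycans, went both ways: 3 of 12 rose, 4 fell and 5 were not called (median change -0.13). GUSB, β-glucuronidase, a step in the breakdown of glycosaminoglycans, stood at 16.2, 18.3 and 18 TPM in 4OHT and at 40.5, 45.8 and 46.4 TPM in DMSO. No 4OHT library came near a DMSO library (-1.29, SE 0.0801, adjusted p = 1.64e-05). GUSB lies at 65960684 to 65982314 on chromosome 7 and has pseudogenes that could take up some of its reads. The 11 listed ones summed to 13.4 ± 1.31 TPM in 4OHT and 15.6 ± 1.36 TPM in DMSO, a smaller difference than that of GUSB, and their part in the result was not tested. NAGLU, which acts on heparan sulfate, stood at 26.7, 31.1 and 26.7 TPM in 4OHT and at 48.6, 42.4 and 42.2 TPM in DMSO (-0.64, SE 0.0876, adjusted p = 0.000866). GAA, which degrades glycogen and whose printed stretch holds 2 copies of TCACGTGA, averaged 20.6 ± 1.45 TPM in 4OHT and 32.3 ± 2.58 TPM in DMSO (-0.62, adjusted p = 0.000816). IDUA, which removes iduronic acid from heparan and dermatan sulfate, averaged 19.4 ± 0.283 TPM in 4OHT and 23.2 ± 1.19 TPM in DMSO (-0.24, adjusted p = 0.0192). Its call was lost without 4OHT replicate 2, 4OHT replicate 3 or DMSO replicate 3 (adjusted p = 0.0501, 0.0544 and 0.0578). Median-of-ratios scaling ended it too (-0.13, adjusted p = 0.153).

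Of the glycosidases that rose, GLA acts on glycolipids, and MANBA and MAN2B1 act on N-glycans. This grouping was made after the values were seen. Other enzymes with substrates of these kinds, among them FUCA1, HEXA and GALC, were not called. GLA, α-galactosidase A, which degrades globotriaosylceramide and is the enzyme missing in Fabry disease, stood at 99.0, 84.5 and 95.3 TPM in 4OHT and at 69.25, 57.2 and 57.6 TPM in DMSO. The lowest 4OHT library was above the highest DMSO library (0.59, SE 0.0937, adjusted p = 0.00170). MANBA, β-mannosidase, stood at 55.8, 53.5 and 52.7 TPM in 4OHT and at 36.1, 36.0 and 34.9 TPM in DMSO (0.59, SE 0.0516, adjusted p = 9.53e-05). MAN2B1, the lysosomal α-mannosidase, averaged 82.0 ± 1.56 TPM in 4OHT and 58.55 ± 2.41 TPM in DMSO (0.48, adjusted p = 0.000225). Both enzymes cut mannose from N-glycans, whereas FUCA1, which removes fucose, averaged 23.7 ± 0.735 TPM in 4OHT and 24.5 ± 1.14 TPM in DMSO (95% interval of the change -0.20 to 0.11).

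GLB1, β-galactosidase, was not called. Its 4OHT libraries at 95.4, 93.7 and 92.7 TPM lay inside the range of the DMSO libraries at 78.95, 85.95 and 97.84 TPM. The 95% interval of its change ran from -0.08 to 0.29, so a rise of up to 0.29 log2 units lies within it. GLB1 forms a complex in the lysosome with CTSA, which protects it, and with the sialidase NEU1, and none of these 3 transcripts passed the test. NEU1 stood at 55.4, 97.9 and 65.9 TPM in 4OHT and at 83.95, 81.1 and 79.3 TPM in DMSO. Replicate 2 of 4OHT was above and the others were below all DMSO libraries (-0.19, 95% interval -0.63 to 0.24). Without 4OHT replicate 2 NEU1 passed as lower (-0.42, adjusted p = 0.00859), and without DMSO replicate 3 GLB1 passed as higher (0.19, adjusted p = 0.0387). GLB1 also passed as higher after median-of-ratios scaling (0.22, adjusted p = 0.0484). HEXA, the α subunit of hexosaminidase A, and GALC, which degrades galactosylceramide, had changes of -0.13 (95% interval -0.29 to 0.02) and -0.12 (-0.27 to 0.04).

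Sulfatases remove sulfate groups from glycosaminoglycans and sulfolipids, and 1 of the 5 passed the test. IDS, iduronate-2-sulfatase, the enzyme missing in Hunter syndrome, stood at 68.1, 67.3 and 62.7 TPM in 4OHT and at 39.8, 36.6 and 18.1 TPM in DMSO. All 4OHT libraries were higher, and DMSO replicate 3 lay well below the other DMSO libraries (1.12, SE 0.266, adjusted p = 0.0110). Without that library the change was 0.78 (adjusted p = 0.000413), and when all genes above 0 were tested the call was lost (adjusted p = 0.0705). IDSP1, the pseudogene of IDS, stood at 0.827 TPM in 4OHT and 0.526 TPM in DMSO. AC244197.3, whose exons overlap those of IDS on the same strand, averaged 2.35 TPM in 4OHT and 5.75 TPM in DMSO, and its part in the IDS values was not tested. GALNS, which acts on keratan and chondroitin sulfate, stood at 53.65, 53.05 and 45.24 TPM in 4OHT and at 44.3, 41.3 and 30.8 TPM in DMSO. The groups did not overlap, but the change missed the threshold (0.39, 95% interval 0.06 to 0.72, adjusted p = 0.0530). It passed without 4OHT replicate 3 (0.47, adjusted p = 0.0490) or DMSO replicate 1 (0.49, adjusted p = 0.0328). It also passed after median-of-ratios scaling (0.51, adjusted p = 0.0205).

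Exons of GALNS overlap those of TRAPPC2L on the other strand, which averaged 52.1 TPM in 4OHT and 42.8 TPM in DMSO; the strand setting of the counting is not given, and its part in the GALNS values was not tested. SGSH, which removes sulfate from heparan sulfate, stood at 24.9, 24.6 and 23.1 TPM in 4OHT and at 34.55, 32.93 and 23.79 TPM in DMSO. Of the DMSO libraries only replicate 3 was within the range of the 4OHT libraries (-0.30, adjusted p = 0.109), and without it SGSH passed as lower (-0.46, adjusted p = 0.00344). SGSH exons overlap those of SLC26A11 on the other strand, at 11.2 TPM in 4OHT and 10.9 TPM in DMSO. The part of SLC26A11 in the SGSH values was not tested. ARSB, which acts on dermatan sulfate, stood at 19.3, 20.6 and 23.7 TPM in 4OHT and at 23.5, 24.6 and 22.1 TPM in DMSO (-0.14, adjusted p = 0.240). ARSA, which degrades sulfatide, averaged 23.3 ± 1.83 TPM in 4OHT and 23.8 ± 0.962 TPM in DMSO (-0.03, 95% interval -0.22 to 0.15), and the sign of its change turned under both scalings between libraries.

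By substrate, the enzymes of heparan sulfate breakdown did not move in 1 direction: IDS rose, IDUA, NAGLU and GUSB fell, and SGSH was not called. This grouping was made after the values were seen.

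Among the lipid enzymes and their activators 3 of 6 rose, 2 fell and ASAH1 was not called (median change 0.17). PSAP, the precursor of the saposins that present glycosphingolipids to hydrolases, averaged 907 ± 24.2 TPM in 4OHT and 738 ± 12.2 TPM in DMSO (0.30, adjusted p = 0.000339). GM2A, the activator that presents GM2 ganglioside to hexosaminidase A, stood at 94.1, 96.2 and 97.8 TPM in 4OHT and at 80.0, 77.4 and 75.3 TPM in DMSO (0.30, SE 0.0453, adjusted p = 0.00128). For both activators every 4OHT library was above every DMSO library. PPT1, which removes palmitate from proteins, stood at 184, 190 and 141 TPM in 4OHT and at 102, 139 and 132 TPM in DMSO. The lowest 4OHT library was barely above the highest DMSO library (0.47, SE 0.148, adjusted p = 0.0347). Omitting 4OHT replicate 1 or 2 ended its call (adjusted p = 0.1 and 0.103), as did omitting DMSO replicate 1 or 3 (adjusted p = 0.0868 and 0.0566). Exons of PPT1 overlap those of CAP1 on the other strand, at 643 TPM in 4OHT and 466 TPM in DMSO, whose part in the PPT1 values was not tested.

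SMPD1, acid sphingomyelinase, which makes ceramide, stood at 76.2, 75.6 and 104 TPM in 4OHT and at 141.5, 129.1 and 134.7 TPM in DMSO. Its 4OHT libraries were all lower, replicate 3 least so (-0.67, SE 0.124, adjusted p = 0.00352). ASAH1, acid ceramidase, which breaks ceramide down, averaged 113 ± 9.94 TPM in 4OHT and 109.5 ± 4.90 TPM in DMSO (0.04, 95% interval -0.13 to 0.21). LIPA, the lysosomal acid lipase that frees cholesterol from its esters, stood at 64.3, 61.7 and 59.3 TPM in 4OHT and at 156.5, 66.5 and 167 TPM in DMSO. DMSO replicate 2 lay near the 4OHT libraries, so the size of the difference rests on the other DMSO libraries (-0.95, 95% interval -1.71 to -0.19, adjusted p = 0.0437). The change was -1.38 without DMSO replicate 2 (adjusted p = 2.51e-05), and the call was lost on leaving out any other library (adjusted p = 0.0868 to 0.130). Median-of-ratios scaling ended the LIPA call too (-0.83, adjusted p = 0.0697), as did testing all genes above 0 (adjusted p = 0.183). Exons of LIPA overlap those of IFIT2 on the other strand, at 2.47 TPM in 4OHT and 9.52 TPM in DMSO, whose part in the LIPA values was not tested.

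**Figure D3:**
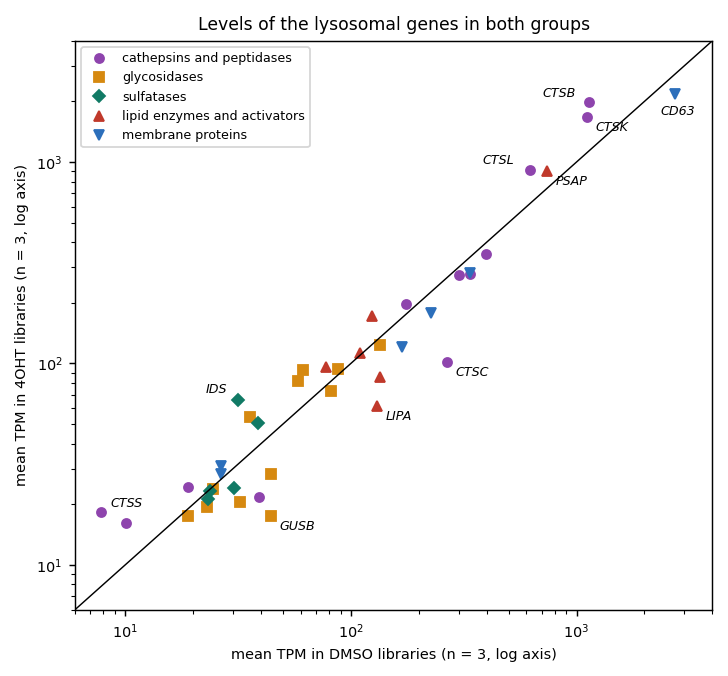
Mean TPM of each of the 41 lysosomal genes in 4OHT libraries (vertical, log axis) against DMSO libraries (horizontal, log axis), n = 3 each, with the role as the symbol and the line of equal levels. CD63, CTSB and CTSK top both groups, and CTSC, GUSB and LIPA lie farthest below the line.

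Membrane proteins line and equip the organelle, and 3 of the 6 fell while 3 were not called (median change -0.28). CD63, a tetraspanin of late endosomes and lysosomes and the most abundant member, averaged 2187 ± 27.2 TPM in 4OHT and 2725 ± 42.4 TPM in DMSO (-0.32, adjusted p = 9.56e-05). SCARB2, also known as LIMP-2, the receptor that carries glucocerebrosidase to lysosomes, stood at 120.2, 116.9 and 124 TPM in 4OHT and at 159, 173 and 174 TPM in DMSO (-0.48, SE 0.0505, adjusted p = 0.000223). LAMP2, a membrane glycoprotein with a splice form needed for chaperone-mediated autophagy, stood at 163, 168 and 202 TPM in 4OHT and at 223, 228 and 226 TPM in DMSO. All 3 of these genes had their 4OHT libraries below every DMSO library (LAMP2 -0.35, SE 0.0796, adjusted p = 0.00929). LAMP2 did not pass with no filter on low values (adjusted p = 0.0520).

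LAMP1, the other main membrane glycoprotein, stood at 283, 281 and 281 TPM in 4OHT and at 416, 293 and 305 TPM in DMSO. The groups did not overlap, yet DMSO replicate 1 stood far above the other DMSO libraries and the change was not called (-0.24, 95% interval -0.54 to 0.05, adjusted p = 0.145). Without that library it was -0.09 (adjusted p = 0.132). MCOLN1, a calcium channel of the lysosome, stood at 32.2, 31.0 and 29.6 TPM in 4OHT and at 28.7, 27.4 and 23.5 TPM in DMSO. Its 4OHT libraries were all higher but the change missed the threshold (0.22, adjusted p = 0.0743), and it passed with median-of-ratios scaling (0.33, adjusted p = 0.0162) and quantile normalization (0.27, adjusted p = 0.0393). Exons of MCOLN1 overlap those of PNPLA6 on the same strand, at 68.7 TPM in 4OHT and 54.5 TPM in DMSO, whose part in the MCOLN1 values was not tested. CTNS, which exports cystine, stood at 30.01, 27.54 and 26.98 TPM in 4OHT and at 27.2, 28.2 and 24.2 TPM in DMSO, with overlapping groups (0.08, adjusted p = 0.425).

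The summed level of all 41 members was 10983, 10976 and 10878 TPM in 4OHT libraries and 10028, 10041 and 10056 TPM in DMSO libraries. The 4OHT libraries thus held 1.10% of their transcripts in these genes and the DMSO libraries 1.01%. This sum is dominated by a few genes, since CD63, CTSB, CTSK, CTSL and PSAP made up 70 ± 0.61% of it in 4OHT and 63.0 ± 1.2% in DMSO. By role, cathepsins and peptidases averaged 5853 ± 30.4 TPM in 4OHT and 4422 ± 118 TPM in DMSO, while membrane proteins averaged 2826 ± 17.0 TPM in 4OHT and 3510 ± 59.3 TPM in DMSO. Glycosidases summed to nearly the same level, 646 ± 25.7 TPM in 4OHT and 647 ± 12.04 TPM in DMSO, with members that rose and fell. CD63 stayed the most abundant member in both groups and made up 20.0 ± 0.164% of the sum in 4OHT and 27.1 ± 0.392% in DMSO.

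Set beside the promoter stretches, the 5 members with TCACGTGA comprised GAA, which fell, and LAMP1, CTSA, GALNS and MCOLN1, which were not called. Of the 10 members with CACGTG, 4 fell (GAA, CTSD, CTSF and CD63) and 6 were not called, with a median change of -0.22. Under median-of-ratios scaling GALNS (0.51, adjusted p = 0.0205) and MCOLN1 (0.33, adjusted p = 0.0162), both with TCACGTGA, passed as higher. The 4 that fell kept their calls under that scaling. Among the 19 members whose windows lack CACGTG 8 rose, 7 fell and 4 were not called, with a median change of 0.08. The shares over all genes tested, with or without a motif, were 19.8% higher and 29.9% lower. For genes at or above the mean of the lowest member they were 27.8% and 30.1%. Whether the calls differ with the motif was not tested. These counts are a description of the letters in these windows. They leave out the members without a window, and calls by motif over all genes tested are not given here.

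Other genes of the lysosome were followed in 7 lists of 84 genes, of which 80 were tested. In all 26 rose, 21 fell and 33 were not called (median change -0.05), and 33 rose and 15 fell under median-of-ratios scaling. Over all genes tested 19.8% rose and 29.9% fell, or 26.5% and 23.5% under that scaling. Among genes at or above the mean of the lowest member 27.8% rose and 30.1% fell. In the proton pump, the V-ATPase, 14 of 16 genes rose, 1 fell and 1 was not called (median change 0.58, or 0.70 under median-of-ratios scaling). Leaving out single libraries left 13 or 14 risen. ATP6V1A, the catalytic subunit, stood at 99.09, 102.5 and 102 TPM in 4OHT and at 53.45, 54.33 and 50.94 TPM in DMSO (0.92, SE 0.0473, adjusted p = 6.61e-06). ATP6V1G1, of the stalk, stood at 223, 227 and 220 TPM in 4OHT and at 121, 124 and 130 TPM in DMSO (0.83, SE 0.0424, adjusted p = 6.44e-06). Each of them was higher in every 4OHT library by a wide margin. The summed level of the 16 genes was 3257 ± 35.2 TPM in 4OHT and 2314 ± 47.7 TPM in DMSO. The gene that fell was ATP6V0A2, an isoform of the membrane sector, at 7.21 ± 0.546 TPM in 4OHT and 9.41 ± 0.345 TPM in DMSO (-0.34, adjusted p = 0.0193), and it was chosen after its values were seen. That call was lost without 4OHT replicate 3 (adjusted p = 0.0576), DMSO replicate 1 (0.0501) or DMSO replicate 3 (0.0599), and with median-of-ratios scaling (-0.23, adjusted p = 0.0731).

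Of the 11 genes that tag and sort the hydrolases 7 fell, 2 rose and 2 were not called (median change -0.24). The shares over all genes tested were 29.9% lower and 19.8% higher. Under median-of-ratios scaling 5 of the list fell and 3 rose, beside 23.5% of all genes lower and 26.5% higher. SORT1, sortilin, which carries prosaposin and other cargo to lysosomes, stood at 6.28, 6.46 and 6.67 TPM in 4OHT and at 21.7, 19.3 and 21.9 TPM in DMSO (-1.56, SE 0.0846, adjusted p = 8.76e-06). NAGPA, which uncovers the mannose 6-phosphate tag, stood at 10.4, 11.1 and 8.27 TPM in 4OHT and at 20.09, 19.62 and 24.65 TPM in DMSO (-1.04, SE 0.132, adjusted p = 0.000593). Both were lower in every 4OHT library. Of the receptors for the tag, both chosen after their values were seen, IGF2R rose by 0.45 (adjusted p = 0.0101; 0.0566 when all genes above 0 were tested) and M6PR was not called (0.40, adjusted p = 0.0671). Without DMSO replicate 2 M6PR passed as higher (0.59, adjusted p = 0.000504), and likewise after median-of-ratios scaling (0.52, adjusted p = 0.0257).

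**Figure D4:**
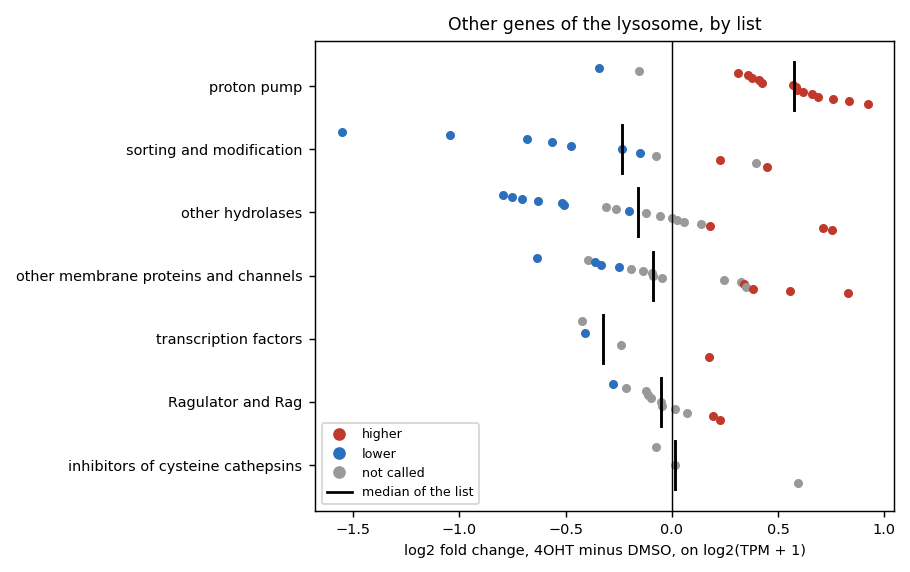
Log2 fold change (4OHT minus DMSO, on log2(TPM + 1)) of each tested gene in 7 lists of other lysosomal genes; red points rose, blue points fell, grey points were not called, and the vertical bar is the median of the list. The proton pump has its median at 0.58 with 14 of 16 genes risen, and the sorting and modification genes have theirs at -0.24.

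Among 18 tested hydrolases outside the 41 members 3 rose, 7 fell and 8 were not called (median change -0.16; 5 rose and 6 fell under median-of-ratios scaling), and CTSV was below the filter. Of 17 other membrane proteins and channels 4 rose, 4 fell and 9 were not called (6 rose and 4 fell under median-of-ratios scaling). OSTM1, the partner subunit of the chloride-proton exchanger CLCN7, stood at 53.7, 57.5 and 53.9 TPM in 4OHT and at 29.1, 32.4 and 30.3 TPM in DMSO (0.83, adjusted p = 4.54e-05). CLCN7 itself, chosen after its values were seen, rose by 0.56 (adjusted p = 0.000607). CLN3 stood at 15.4, 21.6 and 18.2 TPM in 4OHT and at 27.9, 34.3 and 25.3 TPM in DMSO (-0.64, adjusted p = 0.0101), a call lost when all genes above 0 were tested (adjusted p = 0.0568).

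Of 4 tested transcription factors 1 rose, 1 fell and 2 were not called. TFE3, the most abundant of them, rose, at 102, 105 and 105 TPM in 4OHT and at 93.1, 89.2 and 93.9 TPM in DMSO (0.17, SE 0.0428, adjusted p = 0.0124). TFEB stood at 4.89, 4.52 and 3.60 TPM in 4OHT and at 6.59, 5.48 and 6.16 TPM in DMSO (-0.41, SE 0.135, adjusted p = 0.0387). Omitting 4OHT replicate 2 or 3, or DMSO replicate 1 or 3, ended the TFEB call (adjusted p = 0.0674 to 0.115). So did median-of-ratios scaling (-0.31, adjusted p = 0.1). MITF stood at 5.50, 6.17 and 5.85 TPM in 4OHT and at 7.555, 7.99 and 5.857 TPM in DMSO, where only DMSO replicate 3 lay within the 4OHT range (-0.24, adjusted p = 0.166). Without that library MITF passed as lower (-0.36, adjusted p = 0.0435). These are transcript levels, and the factors are known to be controlled by where the protein sits in the cell.

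Ragulator and the Rag GTPases, which dock the growth kinase mTORC1 on the lysosome, were mostly not called: 2 of 11 tested genes rose and 1 fell (3 rose under median-of-ratios scaling). RRAGA stood at 177, 170 and 176 TPM in 4OHT and at 152, 145 and 151 TPM in DMSO (0.23, adjusted p = 0.00294). FLCN, which activates the Rag GTPases RRAGC and RRAGD, stood at 27.9, 27.8 and 25.8 TPM in 4OHT and at 34.9, 30.3 and 34.5 TPM in DMSO (-0.28, adjusted p = 0.0193). Omitting 4OHT replicate 3, DMSO replicate 1 or DMSO replicate 3 ended the FLCN call (adjusted p = 0.0610, 0.0627 and 0.0608). Median-of-ratios scaling ended it too (-0.16, adjusted p = 0.125). Among the protein inhibitors of cysteine cathepsins, CST3, cystatin C, averaged 384 ± 16.7 TPM in 4OHT and 404 ± 17.3 TPM in DMSO (-0.08, adjusted p = 0.233; 0.04 under median-of-ratios scaling). CSTB, the cytosolic cystatin B, averaged 120 ± 1.07 TPM in 4OHT and 119 ± 4.47 TPM in DMSO (0.01, adjusted p = 0.831), and it passed as higher under median-of-ratios scaling (0.13, adjusted p = 0.0438). These inhibitors were chosen after their values were seen.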

How the data were processed

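The authors deposited 1 table of TPM for 59050 entries named by gene symbol in 6 libraries. The submitters' processing notes name GRCh38, StringTie, STAR and Trim Galore 0.6.6. The sources used here do not give the annotation, the strand setting or any scaling between libraries. In the deposited column of DMSO replicate 3, 1 value lay below 0, so its unit was recorded as a score; the column was used as TPM with that value set to 0. Genes averaging 1 TPM or more went into 1 fit of log2(TPM + 1) on group, with no covariate (R 4.3.3, limma 3.58.1, empirical Bayes with a variance trend, 2-sided). The fit was checked on simulated data. Benjamini-Hochberg adjustment covered all genes tested. Depth is unknown, so no detection limit was computed.

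The members and lists were chosen with earlier results of these data known, so no test over a list was made. Library values are given for GLB1, LAMP1, LAMP2, the 2 largest rises and the 2 largest falls in each role group, the 2 largest changes among the called genes of each other list, and TFEB, TFE3 and MITF. The named genes of the list of other hydrolases are not reported here. Positions are from GENCODE 29 and promoters from RefSeq (GRCh38.p14). Alternatives changed the scaling, filter, pseudocount, variance trend, replicate block or set of libraries. Python 3.11.15, pandas 2.3.3, numpy 2.4.6 and matplotlib 3.10.9 were used.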

Additional observations from a re-analysis of the deposited data

How the results depend on the processing

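Across 14 alternatives the members that rose numbered 11 to 17 and those that fell 10 to 14, against 14 and 13 as reported. Of the 27 called members 20 stayed called in the same direction in every alternative run (11 higher, 9 lower), and no called member changed direction. The other 7 (CTSZ, TPP1, IDUA, IDS, LIPA, PPT1 and LAMP2) lost their call in at least 1, and of the 14 members not called 8 were called in none of them. Leaving out 1 library at a time gave 12 to 14 higher and 11 to 14 lower members. Signs turned only in genes that were not called. FUCA1 was 0.069 under median-of-ratios scaling and 0.017 under quantile normalization, ARSA 0.083 and 0.036, CST3 0.044 under median-of-ratios scaling, and MITF 0.020 and CSTB -0.024 under quantile normalization. Leaving out single libraries gave -0.066 to 0.032 for ARSA, -0.028 to 0.082 for ASAH1 and -0.011 to 0.042 for CSTB. The cause was not tested. Over all genes 3018 rose and 4561 fell as deposited, 4039 and 3579 under median-of-ratios scaling. Same-numbered libraries of the groups did not deviate together (correlations 0.048, 0.0055 and 0.0066, and not every library correlated best with its own number). With the replicate number as a block 15 members rose and 12 fell, with 2819 and 4246 over all genes; IDUA lost its call (adjusted p = 0.0503) and GALNS gained one (adjusted p = 0.0114). Unknown read depth limits what can be said of transcripts near 0.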
